A study of Arabidopsis thaliana with 9 samples.

Results

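The genes described here encode enzymes of chlorophyll synthesis in Arabidopsis leaves and a protein that stimulates such an enzyme (GUN4). They were taken as a list of 10 loci by identifier: HEMA1, CHLH, CHLI1, GUN4, CHLM, CRD1, PORA, PORB, PORC and CAO. They were 10 of the 33602 identifiers in the read count table, and all 10 were among the 18952 genes with enough counts to be tested. Leaves of the Col-0 ecotype were taken 30 days after sowing, and 9 libraries were sequenced, 3 biological replicates for each of 3 treatments. All plants were grown in a 16 h light and 8 h dark cycle at 350 µmol m-2 s-1. Control plants (CK) stayed at 23 °C in the light and 18 °C in the dark. For prolonged warming (PW) both temperatures were raised, to 28 °C and 23 °C, from day 23 and for 7 days. For heat shock (HS) plants received 38 °C for 6 h during the light period. The treatments were compared as whole leaves, so a change in the RNA of a cell and a change in the mix of cells cannot be told apart.

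Chlorophyll is made in the plastid from glutamate. A common route leads through 5-aminolevulinic acid to protoporphyrin IX, the point at which insertion of magnesium starts the chlorophyll branch and insertion of iron starts the heme branch. The magnesium branch then adds a methyl group, closes the isocyclic ring, reduces protochlorophyllide in a step that in flowering plants needs light, and converts part of the chlorophyll a to chlorophyll b. Free intermediates of this route are phototoxic, and in seedlings many of its genes are controlled by light and the circadian clock.

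Library totals ranged from 11660970 to 17768334 counts. The leaf markers RBCS-1A, CA1, LHCB1.3 and RCA were abundant in all 9 libraries (in CPM, counts per 1000000 counts of the scaled library). Their summed level was 24800 to 31200 CPM in CK, 61700 to 75100 CPM in PW and 27600 to 36400 CPM in HS. In PW vs CK their log2 fold changes were 1.255, 2.085, 1.054 and 1.972 (edgeR adjusted p from 0.0033 to 0.0139). In HS vs CK they were -0.15, 1.38, -0.43 and 1.66. HSP21, a plastid small heat shock protein, was at 1300, 1407 and 457 CPM in HS and at or under 1.11 CPM in CK and PW. HS replicate 3 stood apart from the other HS libraries, with a correlation of log2 CPM of 0.905 and 0.904 to them against 0.985 between those 2, and results that rest on it are given with and without it. Of 7 root markers, 1 (PYK10) passed the filter on low counts, and their summed level was 18.3, 30.4 and 16.0 CPM in CK, 53.8, 0.193 and 2.58 CPM in PW and 0.543, 0 and 14.8 CPM in HS. PYK10 alone was at 17.6, 30.2 and 15.7 CPM in CK, 53.8, 0.0963 and 2.47 CPM in PW and 0.233, 0 and 14.45 CPM in HS. Every other root marker was at or under 0.463 CPM. The summed level of 5 floral markers was 23.6, 1.61 and 8.82 CPM in CK, 21.7, 3.08 and 6.70 CPM in PW and 2.17, 1.57 and 4.17 CPM in HS.

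Between treatments, 8 of the 10 genes were up-regulated in PW vs CK, 4 in PW vs HS and 3 in HS vs CK, and 0 were down-regulated. With the replicate number as a block, 7 were up-regulated in PW vs CK, PORC being lost, beside 1555 of all 18952 tested genes. A gene was called differentially expressed (DEG) when its edgeR adjusted p was under 0.05 and its change reached 2-fold. Over all tested genes, 8.82% were up-regulated DEGs in PW vs CK, 6.92% in PW vs HS and 11.3% in HS vs CK, and 7.6%, 7.57% and 10.5% were down-regulated. The median log2 fold change of the 10 genes was 1.64 in PW vs CK, 1.05 in PW vs HS and 0.83 in HS vs CK, beside medians over all tested genes of -0.04, -0.02 and 0.03. PW vs CK and HS vs CK share the CK libraries. When TMM was left out of the scaling, the medians over all genes became -0.453, -0.264 and -0.147, and 6, 3 and 3 of the 10 genes were DEGs. Over all genes the calls up and down were then 842 and 3031 in PW vs CK (1671 and 1441 with TMM), 808 and 2153 in PW vs HS (1312 and 1434) and 1502 and 2283 in HS vs CK (2142 and 1985). By the adjusted p alone, 9, 7 and 6 of the 10 genes were higher and 0 lower, beside 16.4%, 12.4% and 21.2% of tested genes that were higher. Of the 6 in HS vs CK, CHLH (edgeR adjusted p = 0.0494) and PORC (0.0476) were close to 0.05. Without HS replicate 3, 5 genes were up-regulated and 1 was down-regulated in HS vs CK, beside 2372 and 3363 of all 18742 genes then tested. Without PW replicate 1, 8 were up-regulated in PW vs HS, beside 1199 of all 18864 genes then tested. PW replicate 1 was also the PW library with the highest summed floral and root markers, whose part in these values was not tested. Its root sum was almost all PYK10. Of the floral markers, LFY was instead highest in PW replicate 3, at 0.618 CPM against 0.342 CPM in PW replicate 1.

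Every PW library lay above every CK library for 9 of the 10 genes, all but PORA, where 25.3% of tested genes showed this. In HS, 5 genes were above CK in every library (HEMA1, CHLH, GUN4, CRD1 and CAO) and PORA was below it, beside 29.7% and 28.2% of tested genes. For 7 genes every PW library was above every HS library, beside 17.3% of tested genes.

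**Figure D1:**
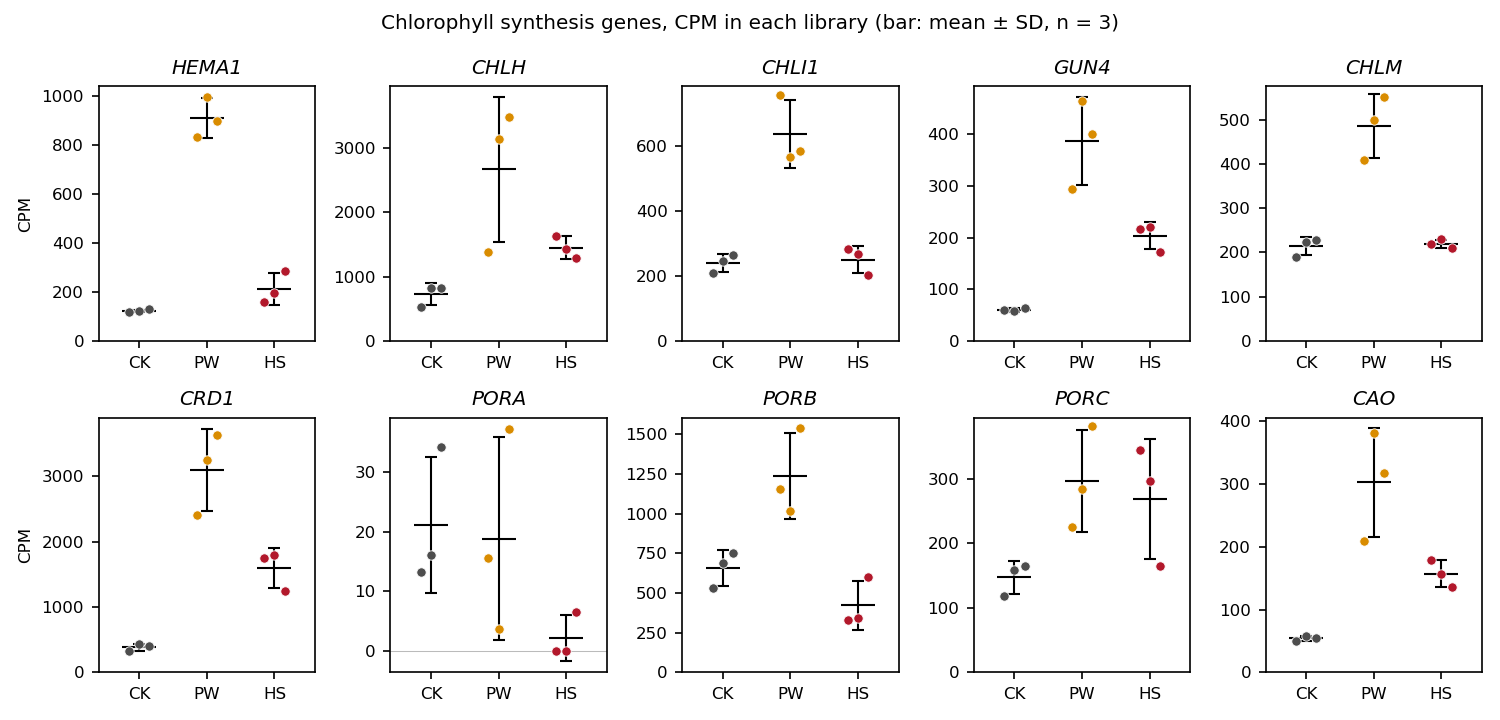
CPM of the 10 chlorophyll synthesis genes in each library (points; CK, PW and HS on the x axis, CPM from 0 on the y axis), with the mean and SD of 3 libraries as bars. PW libraries were above all CK libraries in every panel but that of PORA, and CHLI1 and CHLM in HS lay at the level of CK.

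Compared per kilobase of exon (RPKM), the order of the levels changed between treatments. In CK, PORB was highest at 402 ± 69.1 RPKM (SD, n = 3), followed by CRD1 at 257 ± 36.4, CHLH at 153 ± 36.5, CHLI1 at 149 ± 17.5, CHLM at 125 ± 11.9, PORC at 82.7 ± 14.2, HEMA1 at 52.8 ± 2.6, GUN4 at 46.8 ± 2.89, CAO at 23.3 ± 1.99 and PORA at 12.8 ± 6.85. CHLH and CHLI1 were closer than their SDs. In PW the highest level was that of CRD1, at 2074 ± 422 RPKM, above PORB at 755 ± 166. CRD1 was also highest in HS, at 1071 ± 207 RPKM, with PORB at 258 ± 94.1 and CHLH at 305 ± 36.5, and PORA was lowest in all 3 treatments.

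HEMA1 (AT1G58290, chromosome 1, 21623700 to 21626402 in TAIR10.1) encodes the main glutamyl-tRNA reductase of leaves, which makes the precursor of 5-aminolevulinic acid and sets the flow into the whole route. It was at 117, 120.2 and 129 CPM in CK, 833, 997 and 899.8 CPM in PW, and 158, 197 and 284 CPM in HS. The 3 treatments did not overlap, and PW stood well above both others. HEMA1 was up-regulated 7.45-fold in PW vs CK (log2 fold change 2.90, SE 0.24, edgeR adjusted p = 0.00017) and 4.28-fold in PW vs HS (2.10, SE 0.23, adjusted p = 0.000474). In HS vs CK it was 1.74-fold higher (0.80, SE 0.22, edgeR adjusted p = 0.0201), which is under the 2-fold threshold. HEMA2, the second glutamyl-tRNA reductase gene, was not a DEG in any comparison. It was at 21.1, 18.8 and 20.1 CPM in CK, 17.1, 22.0 and 24.5 CPM in PW and 13.6, 11.7 and 12.5 CPM in HS. HEMA2 was lower in HS vs CK (-0.66, edgeR adjusted p = 0.00947) and higher in PW vs HS (0.75, edgeR adjusted p = 0.00844), both under 2-fold. Its share of the summed HEMA1 and HEMA2 RPKM in 3 libraries each was 14.7% ± 1.03 (SD) for CK, 2.38% ± 0.353 for PW and 6.20% ± 1.95 for HS.

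Magnesium chelatase inserts magnesium into protoporphyrin IX. CHLH is its porphyrin-binding subunit, CHLI and CHLD are its ATPase and platform subunits, and GUN4 binds porphyrin and stimulates the enzyme. The calls differed among the genes of this complex. GUN4 rose in both treatments, CHLH and CHLI1 passed the thresholds in PW vs CK, and CHLI1 and the partner subunits CHLI2 and CHLD were DEGs in PW vs HS. CHLI2 was also higher in PW vs CK (0.78, edgeR adjusted p = 0.0291), under 2-fold.

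CHLH (AT5G13630, chromosome 5, 4387307 to 4392429) was at 527, 828 and 827 CPM in CK, 1374, 3137 and 3483 CPM in PW, and 1632, 1428 and 1287 CPM in HS. PW replicate 1 lay among the HS libraries, far below the other PW libraries, and CK was lowest. CHLH was up-regulated 3.67-fold in PW vs CK (1.87, SE 0.36, edgeR adjusted p = 0.00488). Its change in HS vs CK of 1.99-fold (0.99, SE 0.35, edgeR adjusted p = 0.0494) was just under 2-fold and at the edge of 0.05. It passed both thresholds without HS replicate 3 (1.08, adjusted p = 0.0374). Without CK replicate 1 it was 0.80 (adjusted p = 0.155). The adjusted p was also above 0.05 without any 1 of CK replicates 2 and 3, PW replicates 2 and 3 and HS replicates 1 and 2. The same held with no filter beyond 1 count. It stayed under 0.05 without PW replicate 1. The 1.84-fold difference in PW vs HS (0.88, SE 0.35, edgeR adjusted p = 0.0947) passed only without PW replicate 1 (1.19, adjusted p = 0.013).

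GUN4 (AT3G59400, chromosome 3, 21948501 to 21949796) was at 59.8, 57.3 and 64.7 CPM in CK, 295, 465 and 402 CPM in PW, and 218, 221 and 173 CPM in HS, so that the 3 treatments did not overlap. The gene was up-regulated 6.39-fold in PW vs CK (2.68, SE 0.21, edgeR adjusted p = 0.000164) and 3.37-fold in HS vs CK (1.75, SE 0.20, edgeR adjusted p = 0.000396). The step from HS to PW was 1.90-fold (0.93, SE 0.20, edgeR adjusted p = 0.00926) and reached 2-fold without PW replicate 1 (1.09, adjusted p = 0.00376). GUN4 overlaps AT3G59410 on the opposite strand over 946 bases. Whether the counting used strand is not given in the sources used here, so reads of the overlap could belong to either gene; AT3G59410 had 25.2 to 25.9 CPM in CK, 24.2 to 33.0 CPM in PW and 26.0 to 37.2 CPM in HS.

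CHLI1 (AT4G18480, chromosome 4, 10201672 to 10203469) was at 209.6, 247 and 265 CPM in CK, 758, 568 and 585 CPM in PW, and 282, 267 and 203 CPM in HS. HS libraries lay on both sides of CK, and all PW libraries were above them. CHLI1 was up-regulated 2.65-fold in PW vs CK (1.41, SE 0.20, edgeR adjusted p = 0.00135) and 2.54-fold in PW vs HS (1.35, SE 0.20, edgeR adjusted p = 0.00189), and its log2 fold change in HS vs CK was 0.06 (SE 0.20, edgeR adjusted p = 0.837), with the sign depending on the scaling and on single libraries.

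CHLI2, the second CHLI gene, made up 14.9% ± 0.611 (SD, n = 3) of the summed CHLI1 and CHLI2 RPKM in CK, 10.4% ± 2.3 in PW and 10.8% ± 1.25 in HS. It was up-regulated in PW vs HS (log2 fold change 1.24, SE 0.23, edgeR adjusted p = 0.00497), and so was CHLD (1.10, SE 0.18, edgeR adjusted p = 0.0029), which was under 2-fold with library size alone (0.85). CHLD was at 209, 237 and 248 CPM in CK, 246, 359 and 349.8 CPM in PW and 156, 140.4 and 148 CPM in HS, and every HS library was below every CK library (-0.64, SE 0.18, edgeR adjusted p = 0.0207). In the same HS libraries CHLH and GUN4 were above CK. Over all tested genes, 29.7% lay above CK in every HS library and 28.2% below. Only GUN4 among these partners was a DEG in HS vs CK. CHLI1 and CHLI2 (-0.45, edgeR adjusted p = 0.141) overlapped CK.

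**Figure D2:**
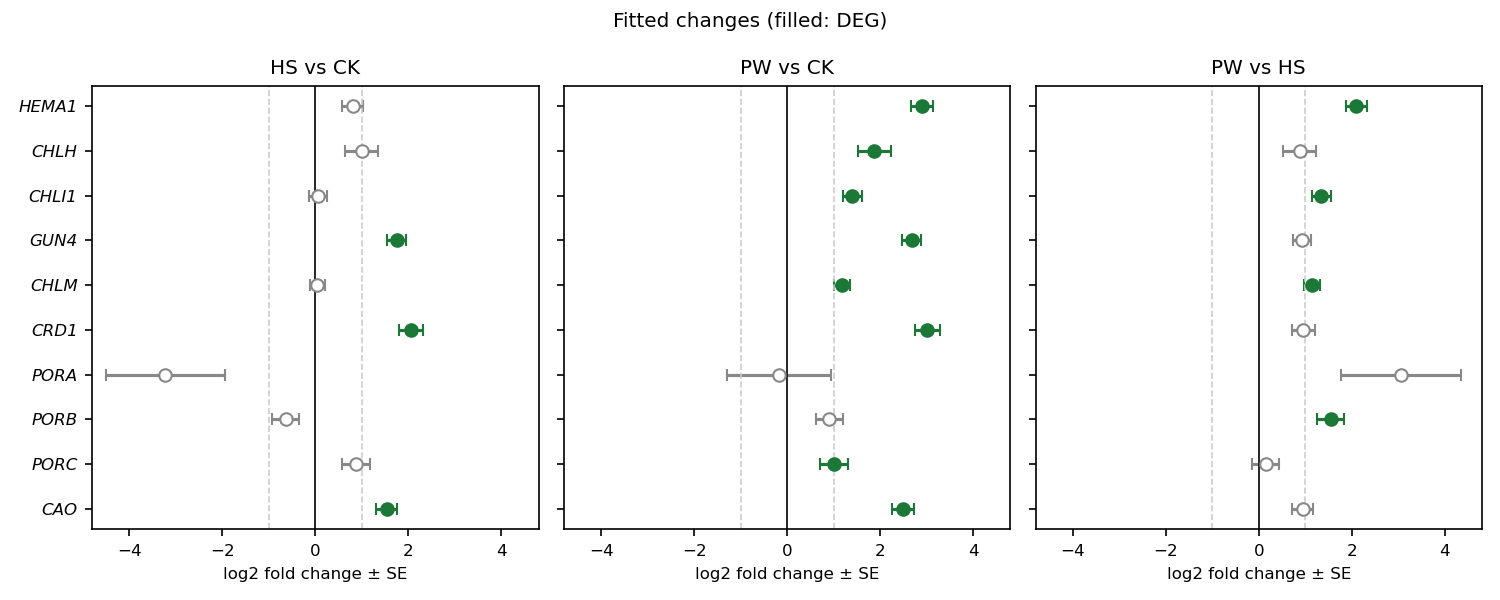
Log2 fold change with its SE for the 10 genes (y axis) in the 3 comparisons, from the fit over all 9 libraries; filled points are DEGs and dashed lines mark 2-fold. Filled points number 3, 8 and 4, all to the right of 0, and PORA has the widest error bars.

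CHLM (AT4G25080, chromosome 4, 12876822 to 12878703) encodes the methyltransferase that acts on magnesium protoporphyrin IX. Levels were 190.4, 223 and 228 CPM in CK, 408, 499 and 551 CPM in PW, and 219, 229.8 and 211 CPM in HS. As with CHLI1, the HS libraries fell within or close to the range of CK and the PW libraries were all higher. CHLM was up-regulated 2.27-fold in PW vs CK (1.19, SE 0.17, edgeR adjusted p = 0.00127) and 2.21-fold in PW vs HS (1.15, SE 0.17, edgeR adjusted p = 0.00172). In HS vs CK its log2 fold change was 0.04 (SE 0.17, edgeR adjusted p = 0.866), a value whose sign changed with the scaling, the filter and without CK replicate 1. With library size alone, the changes in PW vs CK and PW vs HS were 0.76 and 0.90 and fell under 2-fold.

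CRD1 (AT3G56940, chromosome 3, 21076505 to 21078443) encodes the diiron subunit of the cyclase that closes the isocyclic ring. Its increase was the highest of the 10 genes in both treatments against CK. CRD1 was at 323, 428 and 398 CPM in CK, 2404, 3250.0 and 3637 CPM in PW, and 1757, 1797 and 1244 CPM in HS. The 3 treatments were fully separated, with HS between CK and PW. The up-regulation was 8.09-fold in PW vs CK (3.02, SE 0.26, edgeR adjusted p = 0.000212) and 4.18-fold in HS vs CK (2.06, SE 0.25, edgeR adjusted p = 0.000523). PW vs HS gave 1.94-fold (0.95, SE 0.25, edgeR adjusted p = 0.0206), just under the threshold, and it passed without PW replicate 1 (1.11), HS replicate 1 (1.02) or HS replicate 2 (1.04).

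CAO (AT1G44446, chromosome 1, 16848308 to 16851271) encodes chlorophyllide a oxygenase, which forms chlorophyll b, the pigment of the light-harvesting antenna. Its levels were 49.2, 58.4 and 54.6 CPM in CK, 209.8, 380.4 and 317 CPM in PW, and 178, 156 and 136 CPM in HS, again with HS between CK and PW and no overlap. CAO was up-regulated 5.59-fold in PW vs CK (2.48, SE 0.24, edgeR adjusted p = 0.000282) and 2.90-fold in HS vs CK (1.54, SE 0.23, edgeR adjusted p = 0.00121). The 1.93-fold difference in PW vs HS (0.95, SE 0.22, edgeR adjusted p = 0.0147) passed 2-fold without PW replicate 1 (1.15) or HS replicate 1 (1.04).

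GUN4, CRD1 and CAO, which act at separate steps, varied together most closely. Over the 9 libraries the Pearson correlation of log2 CPM was 0.994 for GUN4 and CAO, 0.992 for GUN4 and CRD1 and 0.989 for CRD1 and CAO, the highest of the 45 pairs of the 10 genes. The 21 pairs without a POR gene ranged from 0.688 (CHLH and CHLI1) to 0.994. These values describe 9 libraries that fall into 3 treatments. The stretches upstream of CRD1 and CAO are shown because a G-box (CACGTG), a motif bound by light-signalling factors such as HY5 and the PIFs, stands at the same distance from both annotated starts, at -52 to -47, and again in CAO at -32 to -27. The reference sequence (RefSeq, TAIR10.1) runs up to the base before the start, with the G-box in capitals, for CRD1 at chr3:21076385-21076504 on the plus strand and for CAO at chr1:16851272-16851391 on the minus strand.
CRD1: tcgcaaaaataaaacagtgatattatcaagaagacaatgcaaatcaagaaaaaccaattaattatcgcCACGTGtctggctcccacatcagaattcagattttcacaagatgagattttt
CAO: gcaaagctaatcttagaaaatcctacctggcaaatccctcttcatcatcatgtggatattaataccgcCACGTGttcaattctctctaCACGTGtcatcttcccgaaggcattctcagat
Within 250 bases upstream, searched on both strands, 2 of the 10 genes held CACGTG, beside 6.49% of 27443 promoters. GUN4 did not hold it in this window but held CCAATC, a motif reported for GLK factors, at -13 to -8. PORB held CCAATC at -219 to -214 and -22 to -17, beside 10.2% of promoters. The whole GUN4 window lies within the neighbouring gene AT3G59410, and the PORB site at -219 to -214 lies within AT4G27435. The heat shock element core GAANNTTC was in 0 of the 10 windows, beside 9.55% of promoters.

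The POR genes encode protochlorophyllide oxidoreductases, the light-dependent step. PORA is known from dark-grown seedlings, where it is abundant until light arrives, and PORB and PORC are the forms of green leaves. Their calls differed, though in PW vs CK only by the side of 2-fold, with PORC at 1.01 and PORB at 0.91. PORB rose in PW vs HS, and PORA was not a DEG in any comparison.

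PORB (AT4G27440, chromosome 4, 13725546 to 13727440) was at 534, 690.3 and 754 CPM in CK, 1159, 1017 and 1543 CPM in PW, and 328, 343 and 602 CPM in HS. PW was above CK in every library, and HS replicates 1 and 2 were below CK, with HS replicate 3 inside its range. PORB was up-regulated 2.92-fold in PW vs HS (1.55, SE 0.29, edgeR adjusted p = 0.00536). It was 1.88-fold higher in PW vs CK (0.91, SE 0.29, edgeR adjusted p = 0.0405), which reached 2-fold without PW replicate 2 (1.04, adjusted p = 0.0498). In HS vs CK the log2 fold change was -0.64 (SE 0.29, edgeR adjusted p = 0.108), and without HS replicate 3 it was -0.97 (SE 0.24, adjusted p = 0.00887), still under 2-fold.

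PORC (AT1G03630, chromosome 1, 907523 to 909650) was at 119, 159.5 and 165.2 CPM in CK, 226, 284 and 382 CPM in PW, and 345, 297 and 165.0 CPM in HS. HS replicate 3 was inside the range of CK, and HS replicates 1 and 2 were in the range of PW. PORC was up-regulated 2.01-fold in PW vs CK (1.01, SE 0.30, edgeR adjusted p = 0.0328), at the edge of both thresholds. The call was lost with the replicate number as a block (1.01, adjusted p = 0.0658), with library size alone (0.58, adjusted p = 0.0731), with 10 counts asked of every library (0.97) and without CK replicate 1, 2 or 3 or PW replicate 2 or 3 (0.79 to 1.09). In HS vs CK it was 1.82-fold higher (0.86, SE 0.30, edgeR adjusted p = 0.0476), and 1.12 on the log2 scale without HS replicate 3 (SE 0.24, adjusted p = 0.00439), which passed. PW vs HS gave 0.14 (SE 0.30, edgeR adjusted p = 0.755).

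PORA (AT5G54190, chromosome 5, 21990864 to 21992814) was low and uneven. It had 286, 281 and 535 counts in CK, 182, 39 and 361 counts in PW, and 0, 0 and 89 counts in HS, which gave 13.2, 16.1 and 34.2 CPM, 15.6, 3.76 and 37.2 CPM, and 0, 0 and 6.63 CPM. Every HS library was below every CK library, while PW spanned CK on both sides, with PW replicate 2 as low as HS replicate 3. In HS vs CK the log2 fold change of -3.23 (SE 1.28, edgeR adjusted p = 0.0724) did not pass. Without HS replicate 3 it passed (adjusted p = 0.00315); with the remaining HS libraries at 0, the CK mean was at least 85.8-fold higher than the floor of 3 counts per library, 0.247 CPM. PW vs HS gave 3.06 (SE 1.28, edgeR adjusted p = 0.109), and without HS replicate 3 it also passed (adjusted p = 0.00571), the PW mean being at least 76.2-fold higher than that floor. PW vs CK gave -0.17 (SE 1.11, edgeR adjusted p = 0.922), with a sign that changed without CK replicate 3 or PW replicate 2. HS replicate 3 was also the HS library with the highest summed floral and root markers, 4.17 and 14.8 CPM against 1.57 to 2.17 and 0 to 0.543 CPM, and the part of these in the POR values was not tested. That root sum was almost all PYK10 (14.45 CPM). Of the floral markers, AP3, PI, SEP3 and LFY were highest in HS replicate 3, while AG was at 0 CPM there, against 1.32 and 1.24 CPM in HS replicates 1 and 2.

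**Figure D3:**
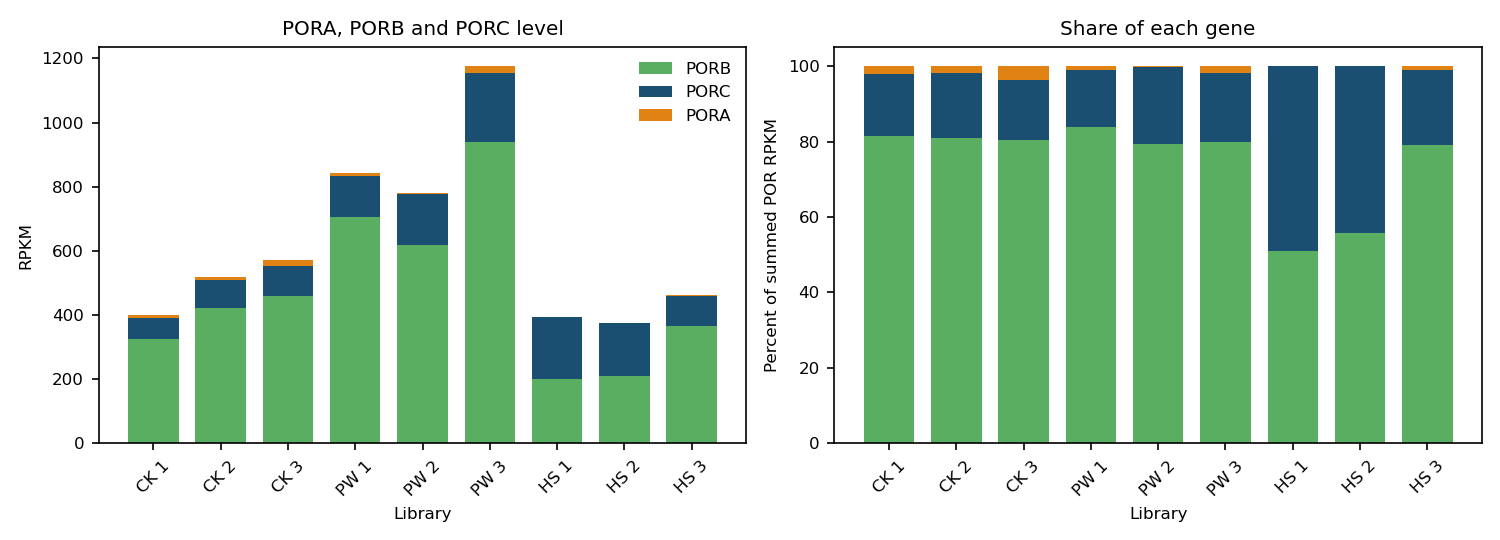
RPKM of PORB, PORC and PORA in each library, stacked (left), and the percent of the summed POR RPKM that each gene made up (right). PORC made up 49.1% and 44.3% in HS replicates 1 and 2, and 15% to 20.3% in the other 7 libraries.

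As a share of the summed POR RPKM, PORC made up 16.6%, 17.2% and 16.1% in CK, then 15%, 20.3% and 18.2% in PW and 49.1%, 44.3% and 19.9% in HS. HS was above CK in every library, but HS replicate 3 was inside the range of PW. The mean share was 37.8% ± 15.7 in HS, 16.6% ± 0.514 in CK and 17.8% ± 2.68 in PW (SD, n = 3). By a two-sided exact permutation test, for which 0.1 is the smallest p with 3 libraries against 3, the differences were 21.2 percentage points in HS vs CK (p = 0.1, adjusted over the 3 comparisons p = 0.3), 1.20 in PW vs CK (p = 0.6, adjusted p = 0.6) and -20.0 in PW vs HS (p = 0.2, adjusted p = 0.3). The summed POR level was 497 ± 88.6 RPKM in CK, 933 ± 213 RPKM in PW and 410.0 ± 46.7 RPKM in HS.

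PORA and PORB were the 2 genes of the list with an evening element (AAAATATCT), a clock-related promoter motif, within 250 bases upstream, beside 2.36% of 27443 promoters on either strand. Their upstream stretches are shown for this reason, up to the base before the annotated start with the motif in capitals (RefSeq, TAIR10.1), for PORA at chr5:21992815-21992999 on the minus strand and for PORB at chr4:13725361-13725545 on the plus strand.
PORA: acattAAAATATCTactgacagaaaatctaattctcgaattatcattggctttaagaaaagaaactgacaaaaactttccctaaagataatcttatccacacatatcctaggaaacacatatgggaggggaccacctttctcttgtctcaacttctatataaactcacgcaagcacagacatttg
PORB: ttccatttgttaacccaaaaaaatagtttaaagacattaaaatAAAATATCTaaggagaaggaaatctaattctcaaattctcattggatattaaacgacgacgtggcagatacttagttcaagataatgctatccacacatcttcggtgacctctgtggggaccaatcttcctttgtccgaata
The motif stood at -180 to -172 in PORA and -142 to -134 in PORB, and in neither stretch did it overlap another searched motif. PORA also held GATAAG, the core of GATA factor sites, at -94 to -89, beside 12.3% of promoters. Over the 9 libraries log2 CPM of PORA and PORB correlated at 0.794, PORB and PORC at 0.108 and PORA and PORC at -0.472, the lowest of the 45 pairs. The longest exact stretch shared by the transcripts was 48 bases, between PORA and PORB.

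Around these genes, 50 others of tetrapyrrole metabolism and its control were compared, of which 47 were tested. In PW vs CK 15 were up-regulated and 1 was down-regulated, in HS vs CK 6 and 2, and in PW vs HS 12 and 1. Over all tested genes 8.82% and 7.6%, 11.3% and 10.5%, and 6.92% and 7.57% were called up and down, so the count of rises in HS vs CK was near that share. With library size alone the counts were 9 and 2, 6 and 3, and 7 and 2. In 8 of the 47 genes and 0 of the 10 chlorophyll synthesis genes, all HS and all PW libraries lay on opposite sides of all CK libraries, beside 4.53% of tested genes. The median log2 fold changes of the 47 genes were 0.64, 0.04 and 0.70. HEMA3, HEMB2 and HO4 did not pass the filter.

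The shared upstream steps, from 5-aminolevulinic acid to protoporphyrin IX, differed between PW and HS. Of 12 tested genes, 6 were up-regulated in PW vs HS, beside 6.92% of all tested genes. They were GSA1 (1.09), which forms 5-aminolevulinic acid, HEMB1 (1.39), which joins it to porphobilinogen, HEMC (1.53), HEME1 (1.58), HEME2 (1.5) and HEMG1 (1.33), which lead on to protoporphyrin IX. Their edgeR adjusted p ranged from 0.000291 for HEMC to 0.00387 for GSA1. Against CK, HEMC (1.11, edgeR adjusted p = 0.00103) and HEMD, the uroporphyrinogen III synthase (1.16, edgeR adjusted p = 0.00113), rose in PW, and GSA1 fell in HS (-1.57, edgeR adjusted p = 0.000535). GSA1 was at 167, 175 and 196 CPM in CK, 151, 92.2 and 142 CPM in PW and 61, 58.8 and 60.8 CPM in HS. The median of the 12 genes was -0.66 in HS vs CK while that of the 10 chlorophyll synthesis genes was 0.83. GSA1 in PW vs HS was under 2-fold without PW replicate 1 (0.96), HEMD in HS vs CK (0.97) was over it without CK replicate 2 (1.01), CK replicate 3 (1.04) or HS replicate 3 (1.04), HEME1 in PW vs CK (0.90) without PW replicate 2 (1.02), and HEME2 in HS vs CK (-0.98) without CK replicate 1 (-1.02) or CK replicate 2 (-1.01). With library size alone HEMC (0.70) and HEMD (0.74) in PW vs CK and GSA1 in PW vs HS (0.87) were under 2-fold. HEME2 in HS vs CK passed with it (-1.16), with 10 counts asked of every library (-1.03), and at -1.0 with DESeq2 and with only those 2 groups fitted.

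**Figure D4:**
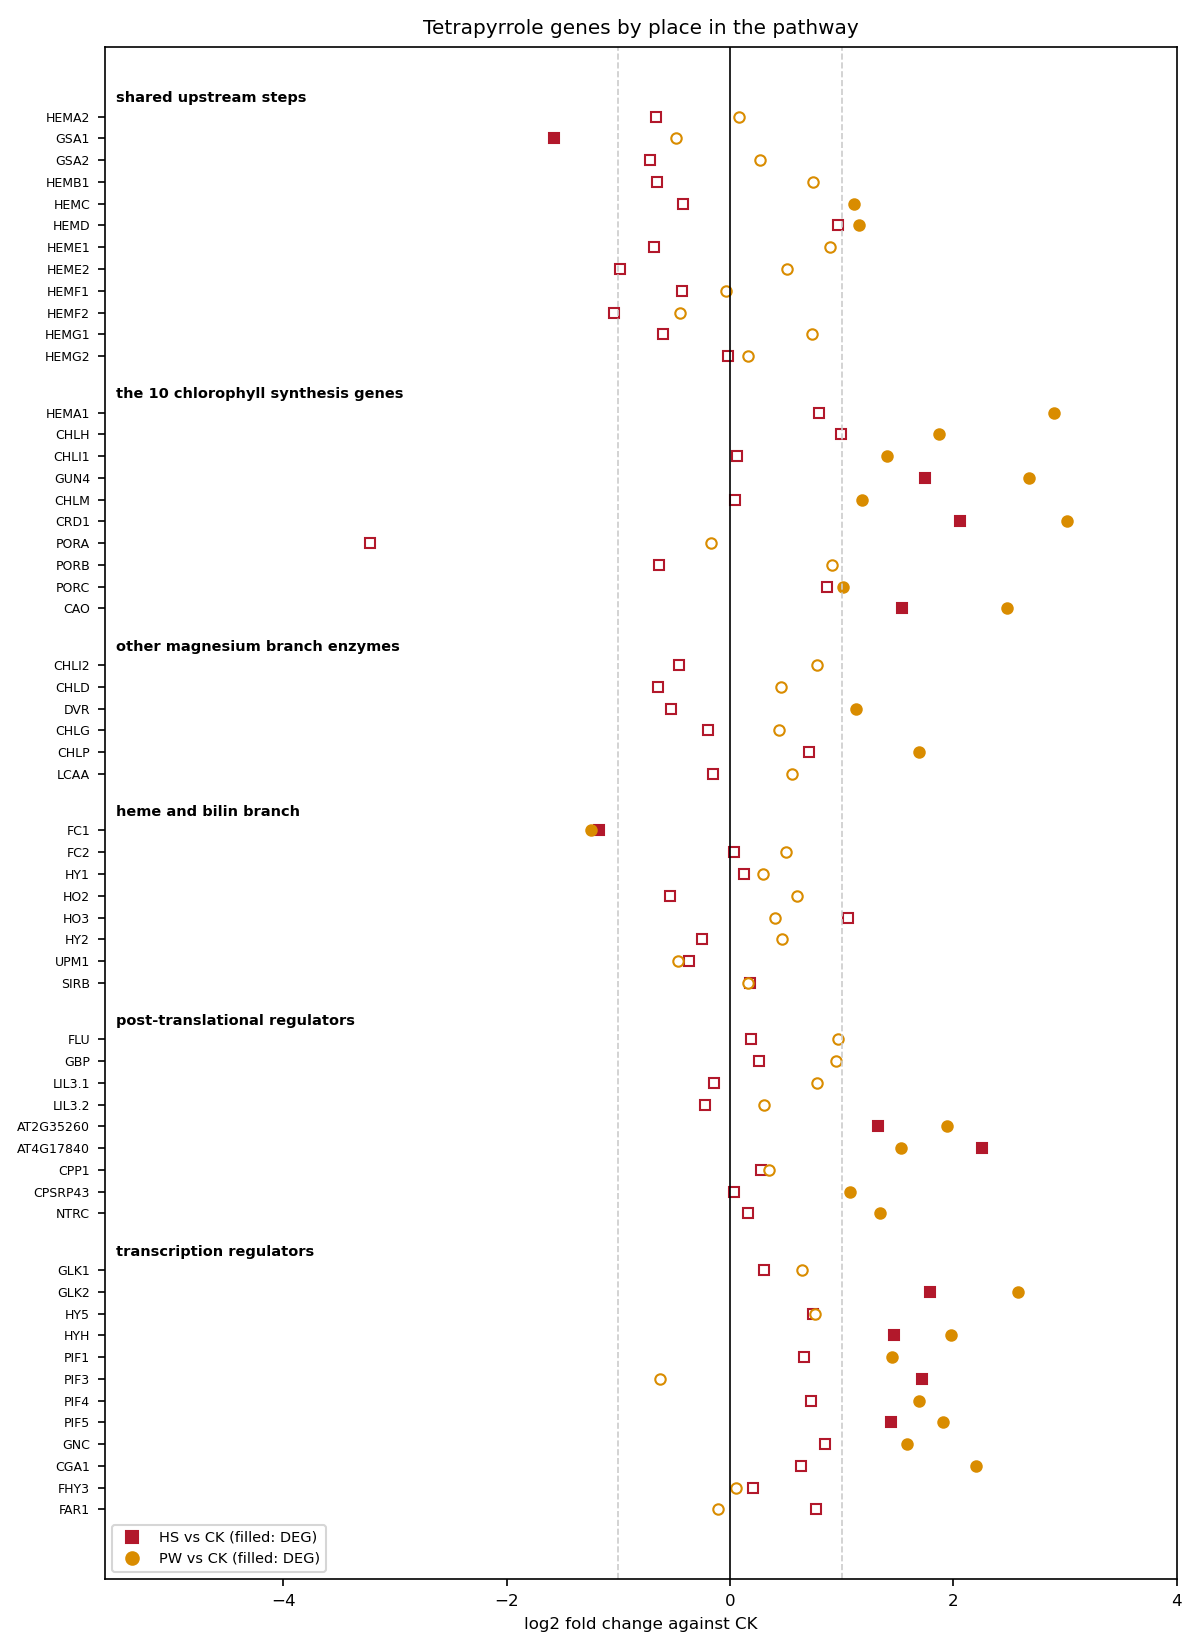
Log2 fold change against CK of the 10 chlorophyll synthesis genes and 47 other tetrapyrrole genes, grouped by place in the pathway, for HS (squares) and PW (circles); filled symbols are DEGs and dashed lines mark 2-fold. Of the shared upstream steps, 1 gene is a filled square, GSA1 at -1.57, and 2 are filled circles, HEMC and HEMD.

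Among the 6 other enzymes of the magnesium branch, 2 rose in PW vs CK, beside 8.82% of all tested genes. HS vs CK held 0 DEGs, beside 21.8% of all tested genes called in either direction. DVR, the divinyl reductase, rose in PW vs CK (1.13, edgeR adjusted p = 0.0029) and in PW vs HS (1.66, edgeR adjusted p = 0.000641), the first not with library size alone (0.72). CHLP, geranylgeranyl reductase, which makes the phytyl tail, was at 656, 804 and 748 CPM in CK, 1881, 2622 and 2651 CPM in PW and 1202, 1247 and 1158 CPM in HS. It rose in PW vs CK (1.70, edgeR adjusted p = 0.000709), and its PW vs HS difference (0.99, edgeR adjusted p = 0.00807) was over 2-fold without PW replicate 1 (1.13) or HS replicate 2 (1.01).

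In the heme and bilin branch, FC1, 1 of the ferrochelatase genes, was the only tested gene of 8 that fell in both treatments. Its levels were 39.2, 38.8 and 43.0 CPM in CK, 14.9, 17.2 and 19.1 CPM in PW and 18.9, 19.1 and 15.6 CPM in HS, with no overlap between CK and the others. FC1 was down-regulated in PW vs CK (-1.24, SE 0.14, edgeR adjusted p = 0.000518) and in HS vs CK (-1.18, SE 0.14, edgeR adjusted p = 0.000448). Over all tested genes 7.6% and 10.5% were down-regulated in these comparisons. HO2, a heme oxygenase-like gene, was up-regulated in PW vs HS (1.14, edgeR adjusted p = 0.000484), though not with library size alone (0.92).

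Of 9 genes whose products act on the enzymes after translation, or were listed with them, 4 rose in PW vs CK and 2 in HS vs CK, beside 8.82% and 11.3% of all tested genes. CPSRP43, a chaperone of antenna proteins and of tetrapyrrole enzymes, rose in PW vs CK (1.08, edgeR adjusted p = 0.00151) and PW vs HS (1.04, edgeR adjusted p = 0.00198), in both cases not without PW replicate 3 (0.96 and 0.93). NTRC, a plastid thioredoxin reductase that keeps CHLM and other enzymes reduced, rose in PW vs CK (1.34, edgeR adjusted p = 0.00112) and PW vs HS (1.18, edgeR adjusted p = 0.00218). With library size alone both genes were under 2-fold in PW vs CK (CPSRP43 0.65, NTRC 0.92) and in PW vs HS (0.79 and 0.96). AT2G35260 rose in PW (1.94, edgeR adjusted p = 0.000817) and HS (1.33, edgeR adjusted p = 0.00308) against CK, and AT4G17840 rose in HS (2.25, edgeR adjusted p = 0.00345) and PW (1.53, edgeR adjusted p = 0.0211). The AT4G17840 call in PW vs CK was lost without any 1 of CK replicates 1, 2 and 3 and PW replicates 2 and 3 (adjusted p from 0.0531 to 0.0746), and PW vs HS passed without HS replicate 3 (-1.05).

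Of 12 transcription regulators of the pathway, 7 were up-regulated in PW vs CK and 4 in HS vs CK, beside 8.82% and 11.3% of all tested genes, and of these CGA1 in PW vs CK and HYH in HS vs CK were lost when any of several single libraries was left out. GLK2, a GOLDEN2-like activator of chlorophyll genes, was at 45, 50.5 and 39.5 CPM in CK, 176, 325 and 305 CPM in PW and 198, 164 and 107 CPM in HS. It rose in PW vs CK (2.58, SE 0.30, edgeR adjusted p = 0.000593) and in HS vs CK (1.79, SE 0.29, edgeR adjusted p = 0.00184). Its partner GLK1 was not a DEG, with 0.64 in PW vs CK (edgeR adjusted p = 0.0289) and 0.30 in HS vs CK (adjusted p = 0.221). HY5, the bZIP activator of light responses, was low, at 3.22 to 6.84 CPM over all libraries, and not a DEG (0.76 in PW and 0.75 in HS against CK), while its homologue HYH rose in PW vs CK (1.98, edgeR adjusted p = 0.0107) and in HS vs CK (1.47, edgeR adjusted p = 0.0291).

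Of the PIFs, which restrain chlorophyll synthesis in the dark, PIF1 (1.45), PIF4 (1.69) and PIF5 (1.91) rose in PW vs CK and PIF5 (1.45) and PIF3 (1.72) in HS vs CK, with edgeR adjusted p from 0.000128 for PIF3 to 0.00171 for PIF5 in HS. PIF3 fell in PW vs HS (-2.35, edgeR adjusted p = 5.5e-05), and its -0.63 in PW vs CK passed 2-fold with library size alone (-1.06). The GATA factors GNC (1.58, edgeR adjusted p = 0.00122) and CGA1 (2.20, edgeR adjusted p = 0.0462) rose in PW vs CK. CGA1 was at 1.88, 15.1 and 3.50 CPM in PW, so 1 library carried its mean, and it was 0.86 without PW replicate 2 (adjusted p = 0.25). It also failed without any 1 of CK replicates 1 to 3 and HS replicates 1 and 2 (adjusted p from 0.0504 to 0.132) and with the replicate block (1.91, adjusted p = 0.0924) or with library size alone (1.72, adjusted p = 0.0731), and HYH in HS vs CK failed without any 1 of CK replicates 1 and 2 and HS replicates 1 and 2 (adjusted p from 0.0761 to 0.101) and with the block (1.41, adjusted p = 0.0654).

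Without HS replicate 3, GNC in HS vs CK (1.05) and PIF4 in PW vs HS (1.06) passed, PIF4 also without PW replicate 1 (1.09) or PW replicate 3 (1.06), and without PW replicate 1 GLK2 (1.01) and CGA1 (2.02) passed in PW vs HS.

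Several circadian clock genes differed from CK by more than CRD1 did, as CCA1 with log2 fold changes of 5.66 in PW and 6.71 in HS and PRR9 with 6.21 and 5.62. CCA1, a morning-phased repressor, was at 1.48, 1.26 and 1.34 CPM in CK, 27.0, 105.5 and 76.9 CPM in PW and 159.8, 146 and 126 CPM in HS. ELF4, an evening-phased gene, was at 124, 162 and 141 CPM in CK, 12.0, 24.2 and 19.0 CPM in PW and 5.90, 10.8 and 6.11 CPM in HS. Of 9 clock genes, CCA1, LHY, PRR9 and PRR7 were up-regulated and TOC1, ELF4 and LUX down-regulated in PW vs CK and in HS vs CK, with PRR5 and GI not DEGs, beside 16.4% and 21.8% of all tested genes called in either direction. The hour at which each treatment was harvested is not given in the sources used here. The part of this clock difference in the changes of the chlorophyll synthesis genes against CK was not tested, and a difference in harvest hour and an effect of the treatment cannot be told apart. In PW vs HS, ELF4 was the clock gene called (1.27, edgeR adjusted p = 0.0155). TOC1 (-0.77), PRR5 (0.85) and LUX (-0.45) were under 2-fold, with edgeR adjusted p of 0.0206, 0.024 and 0.0461. For 4 clock genes every PW library was above every HS library and for 4 below, beside 17.3% and 21.1% of tested genes. The part of this in the PW vs HS differences of the chlorophyll synthesis genes was not tested either.

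**Figure D5:**
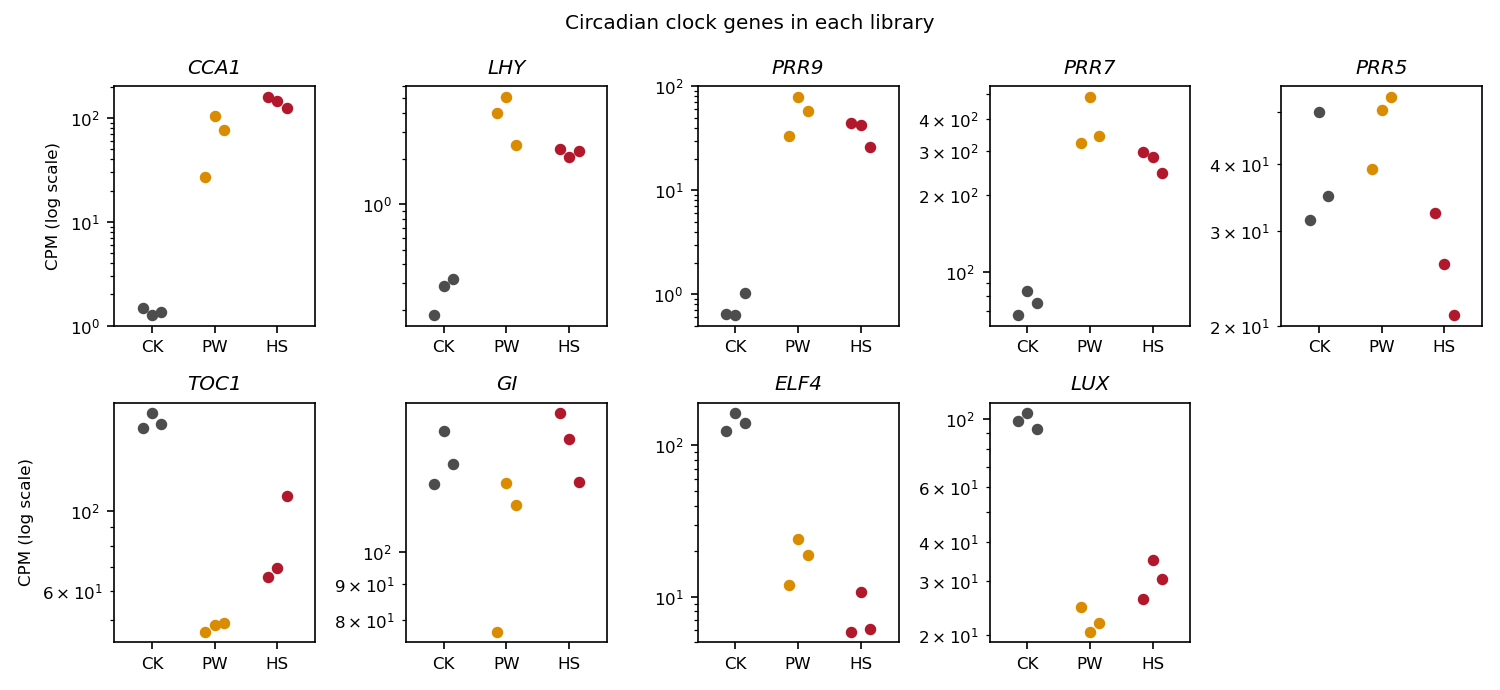
CPM of 9 circadian clock genes in each library on a log axis, by treatment. CCA1, LHY, PRR9 and PRR7 were lowest in CK, TOC1, ELF4 and LUX were highest in CK, and CK did not overlap PW or HS in those 7 panels.

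The mean profile of the 10 genes, each centred and scaled over the 9 libraries, was -0.998, -0.673 and -0.593 SD in CK, 0.730, 1.01 and 1.27 SD in PW and -0.225, -0.264 and -0.256 SD in HS. Among all other tested genes, those whose log2 CPM followed it most closely were PPD1 (r = 0.995), a PsbP-family protein gene, FAD5 (0.994), a plastid fatty acid desaturase gene, AT1G21500 (0.993), an uncharacterized gene, FBA7 (0.985), annotated as an aldolase, and RBCS3B (0.984), a Rubisco small subunit gene, over 9 libraries. FAD5 was at 46.3, 56.3 and 53.2 CPM in CK, 176, 264 and 298 CPM in PW and 87.0, 87.0 and 81.2 CPM in HS. These correlations are descriptions over libraries that share their treatments.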

How the data were processed

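Leaf RNA of CK, PW and HS (3 libraries each) was sequenced by Illumina. The counts deposited by the authors are whole numbers of reads per gene, not normalized, from TopHat2 alignments to TAIR10 made after quality filtering. CASAVA 1.8 and HTSeq 0.6.1 are named in the submitters' processing notes. Strand use, the handling of reads with several matches and the annotation version are not given in the sources used here. Shared or overlapping sequence could therefore move counts between genes, and 7 of the 10 genes overlap another gene by 36 to 946 bases.

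Of 33602 identifiers, 32835 were matched by locus tag to RefSeq's TAIR10.1 annotation, which gave positions, exon lengths and upstream sequence. The filter asked for 10 counts or more in 3 libraries or more and kept 18952 genes. TMM scaling and edgeR 4.0.16 (R 4.3.3) quasi-likelihood tests with 1 coefficient per treatment were used, with p-values adjusted by Benjamini-Hochberg over all 18952, and DEGs called at 0.05 and 2-fold. The biological coefficient of variation was 0.273. CPM and RPKM use TMM-scaled library sizes. The PORC share was tested with scipy 1.17.1, and figures were drawn with matplotlib 3.10.9 in Python 3.11.15. Alternatives used DESeq2 1.42.0, the edgeR test against 2-fold (glmTreat), other filters and scalings, a replicate block, and each replicate left out. Scripts were tested on simulated data. Same-numbered CK and PW libraries deviated together (r = 0.287, 0.299 and 0.123), and differently numbered ones did not (-0.265 to -0.0263). The numbers could therefore pair the samples of PW vs CK. Differently numbered pairs with HS ranged from -0.569 to 0.54, so shared deviation did not always follow the number. The main fit has no block, since none is stated in the study's methods, and the blocked fit is an alternative. All 10 genes are named; of the other pathway genes, the DEGs and HEMA2, CHLI2, CHLD, GLK1, GLK2 and HY5, plus the 5 genes most like the mean profile, with HSP21, leaf and clock genes as checks. The genes and lists were chosen with earlier results of these data known.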

Additional observations from a re-analysis of the deposited data

Results flagged for a closer look

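For 8 of the 47 other tetrapyrrole genes tested, every HS library lay on one side of every CK library and every PW library on the other, an arrangement seen in 4.53% of all tested genes. Since this arrangement already separates PW from HS, the edgeR tests of PW vs HS are not separate support for it, and the values are descriptions. The edgeR adjusted p in PW vs HS was under 0.05 for all 8 but LIL3.2 (0.068). Between PW and HS the log2 fold changes were 1.39 for HEMB1, 1.53 for HEMC, 1.58 for HEME1, 1.33 for HEMG1, 1.66 for DVR, 1.14 for HO2 and 0.52 for LIL3.2, higher in PW, and -2.35 for PIF3, higher in HS. HEMB1 was at 125, 129.9 and 139.9 CPM in CK, 231, 207 and 222 CPM in PW and 70.6, 78.3 and 102 CPM in HS.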

How the results depend on the processing

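With 3 libraries per treatment, genes close to 2-fold or to an adjusted p of 0.05 could change call. The counts of chlorophyll synthesis DEGs were within 1.5 times of 3, 8 and 4 (HS vs CK, PW vs CK, PW vs HS) under DESeq2, both other filters, library size alone, without organelle genes and with only the groups compared. Exceptions were 5 in HS vs CK with the replicate block, 7 in PW vs HS and 6 in HS vs CK by the adjusted p alone, and with glmTreat 4 in PW vs CK and 1 in PW vs HS. Leaving out 1 replicate gave 3 to 6 in HS vs CK, 7 to 8 in PW vs CK and 4 to 8 in PW vs HS. Calls over all tested genes, in the same order, were 4127, 3112 and 2746 in the main fit. They were 3182 to 5735, 2378 to 3656 and 2199 to 3880 with 1 replicate left out. By the adjusted p alone they were 7437, 5884 and 5052, with glmTreat 1313, 843 and 749, and with the block 4067 in HS vs CK. Counts of other tetrapyrrole genes (8, 16 and 13) were 23, 28 and 25 by the adjusted p alone, 4, 6 and 4 under glmTreat, 9, 11 and 9 with library size alone (in PW vs CK 9 up and 2 down against 15 and 1, in PW vs HS 7 and 2 against 12 and 1), and 7 to 12, 14 to 17 and 13 to 17 with 1 replicate left out.

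The difference in PORC share ranged from 15.5 to 30.1 percentage points in HS vs CK, -0.0445 to 2.62 in PW vs CK and -28.9 to -14.3 in PW vs HS with 1 replicate left out. Sign changes with library size alone were CHLI1 (-0.13) and CHLM (-0.14) in HS vs CK, PORC in PW vs HS (-0.0748), HEMA2 in PW vs CK (-0.35), HEMD in PW vs HS (-0.0468), CPSRP43 (-0.14) and NTRC (-0.0354) in HS vs CK, and HY5 in PW vs HS (-0.23). With 10 counts in every library CHLM (-0.0063) and CPSRP43 (-0.00887) changed sign in HS vs CK. With 1 replicate left out, values crossed 0 for CHLI1 (-0.0402 to 0.192) and CHLM (-0.0445 to 0.0796) in HS vs CK, PORA in PW vs CK (-1.12 to 0.35), PORC in PW vs HS (-0.11 to 0.36), HEMA2 in PW vs CK (-0.0329 to 0.219), and FC1 (-0.161 to 0.0247) and HY5 (-0.0854 to 0.0716) in PW vs HS. None of these was a DEG, and the cause was not tested. PORA was left out where every library had to have 10 counts.

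Replicate numbers did not pair HS with the other treatments (r from -0.491 to 0.451 between same-numbered libraries), so the block there is a hint only; it added CHLH (1.07) and PORA (-4.23) to the DEGs of HS vs CK and PORA (3.64) to those of PW vs HS, removed HYH in HS vs CK (adjusted p = 0.0654), and in PW vs CK removed PORC (adjusted p = 0.0658) and CGA1 (adjusted p = 0.0924). It changed no other call of a named gene.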
